A study of Mus musculus with 12 samples.

Results

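Mafa, Pdx1, Nkx6-1 and Pax4, 4 transcription factor genes known for their roles in insulin-producing β-cells, were followed across the endocrine cell types of the adult mouse islet. They were chosen by name, with earlier results of these data known. They are 4 of the 31055 genes in the single-cell count tables and of the 45808 genes in the bulk count table. Single cells came from islets of 2-month-old Ppy-YFPi mice (Ppy-rtTA;TetO-Cre;R26-YFP, mixed background), which carry rtTA in place of the Ppy coding sequence on a single allele and had received doxycycline (DOX) at 1 mg/ml in drinking water. In these mice DOX switches on Cre in cells that transcribe Ppy, and the YFP mark is then permanent. YFP thus records Ppy transcription during the DOX treatment, which need not have lasted until the sort. YFP+ and YFP- islet cells were sorted and sequenced separately in 2 experiments, each on islets pooled from several mice, which gave 4 libraries. Bulk RNA-seq compared 5 libraries of sorted YFP+ γ-cells of the same genotype with 3 libraries of δ-cells, sorted as YFP+ from Sst-Cre;R26-YFP mice of the same age and background, in which the mark reports any past Sst transcription. The γ-cell mice had received DOX as well. The labels repeat that treatment note for the δ-cells, but it speaks only of marking Ppy-expressing cells and the Sst-Cre mark needs no DOX, so in bulk the cell type, the genotype and any difference in DOX cannot be told apart. The labels do not say whether the bulk libraries of a cell type came from separate animals, so their p-values measure only the spread between these libraries.

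Pdx1 and Nkx6-1 are homeodomain factors and Pax4 is a paired-homeodomain factor. All of them act early in the specification of the pancreas or of its β-cell lineage. Pdx1 and Nkx6-1 remain active in adult β-cells, and Pdx1 is also known in δ-cells. Mafa is a basic leucine-zipper factor that appears late, as β-cells mature, and acts with Pdx1 and Neurod1 on the insulin promoters. Pax4 is chiefly a factor of endocrine progenitors and falls to low levels in the adult islet.

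In GRCm38.p6, with Ensembl gene models, Mafa lies on chromosome 15 (75745490 to 75748228, minus strand, a single exon), Pdx1 on chromosome 5 (147269959 to 147275848, plus strand) and Nkx6-1 on the same chromosome (101658139 to 101664996, minus strand). Pax4 lies on chromosome 6 (28442334 to 28449353, minus strand). The 5′ part of Pdx1 overlaps the antisense gene Plut (chromosome 5, 147228596 to 147271521, minus strand), and union-mode counting sets aside reads in such an overlap, so the bulk Pdx1 level may be understated. Promoter windows of 250 bases before the RefSeq start were looked up for the 4 factors and for 3 genes they are known to control, Ins1, Ins2 and Iapp, and 4 of the 7 were found (Pdx1, Nkx6-1, Ins1 and Iapp). They are shown because Pdx1, Nkx6-1 and Pax4 carry homeodomains, whose core recognition sequence is TAAT (ATTA on the other strand). Matches on either strand are in capitals, on the gene's strand from 5′ to 3′. The window of Nkx6-1 lies inside the first exon of the Ensembl model and that of Pdx1 partly so, and of these only the stretch upstream of the Pdx1 model is printed.
Ins1, chr19:52264047-52264296, plus strand: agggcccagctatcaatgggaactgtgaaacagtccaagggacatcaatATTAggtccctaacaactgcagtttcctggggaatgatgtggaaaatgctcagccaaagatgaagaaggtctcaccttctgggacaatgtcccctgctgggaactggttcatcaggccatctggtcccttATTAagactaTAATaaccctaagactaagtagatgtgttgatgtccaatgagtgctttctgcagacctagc
Iapp, chr6:142298175-142298424, plus strand: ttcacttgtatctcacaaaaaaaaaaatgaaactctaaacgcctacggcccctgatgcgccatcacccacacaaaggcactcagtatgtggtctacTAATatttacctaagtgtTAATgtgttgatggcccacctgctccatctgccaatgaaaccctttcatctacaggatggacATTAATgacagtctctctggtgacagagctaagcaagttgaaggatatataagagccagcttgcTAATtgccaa
Pdx1, chr5:147269847-147269958, plus strand: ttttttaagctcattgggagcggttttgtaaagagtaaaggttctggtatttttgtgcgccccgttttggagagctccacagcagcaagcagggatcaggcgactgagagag

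The Ins1 window held 3 matches and the Iapp window 5, a pair of which overlap. The whole windows of Pdx1 and Nkx6-1 held 0. At least 1 match was present in 54.92% of 32851 mouse promoter windows of this length, at least 3 in 17.3% and at least 5 in 5.54%. A match describes these letters only and is not evidence of binding.

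The single-cell tables held 5982 cells, of which 128 were removed as doublets and 1425 as non-endocrine. Endocrine cells were classed by which of Ppy, Gcg, Ins2 and Sst exceeded a threshold, and the 7 classes compared held 4094 cells: 1436 Ppy+, 634 Gcg+, 525 Ins2+ and 233 Sst+ monohormonal cells, and 760 Ppy+Gcg+, 383 Ppy+Sst+ and 123 Ppy+Ins2+ bihormonal cells. The 4 factors had no part in the clustering on which the classes rest. Ppy+ cells came almost wholly from the YFP+ libraries and the other monohormonal classes from the YFP- libraries, so the class and the sorted fraction cannot be told apart in those comparisons. Bihormonal cells lay mostly in the YFP+ libraries, so their comparisons with Gcg+, Ins2+ or Sst+ cells share this limit in part. Median depth ran from 2962 unique molecular identifiers (UMIs, counted transcripts) per cell in Sst+ cells to 23879 in Ins2+ cells, and 7 to 11 cell barcodes per library also occurred in another. Levels below are CPM of UMIs (counts set to a common library total), scaled by TMM, of all cells of a class in an experiment, in the order experiment 1, experiment 2 (14 sums). Of β-cell markers that the class rule did not use, though the clustering did, Slc2a2 was at 362 and 260 CPM in Ins2+ and 0.206 and 0.895 CPM in Ppy+ cells, and Ucn3 at 400 and 221 CPM against 0.824 and 0.448 CPM. A gene passed the test at an adjusted p of at most 0.05 (edgeR's quasi-likelihood test, Benjamini-Hochberg over 10621 genes) and a log2 fold change above 0.7213. For each gene the spread was estimated over all 14 sums, because a class has only 1 sum per experiment. An SE or p-value is thus not a measure of the spread between the experiments of the classes compared.

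Mafa, the factor of mature β-cells, was found almost wholly in the classes with Ins2. Its level in Ins2+ cells was 353 and 299 CPM. In Ppy+ cells no Mafa UMI was found in 675 and 761 cells, and a count of 0 in all 1436 limits the share with a Mafa UMI to 0.209%, which does not limit the share of cells expressing the gene. Every other class without Ins2 stayed below 4 CPM: Sst+ cells had 2.93 and 3.35 CPM, Gcg+ cells 2.04 and 1.37, Ppy+Sst+ cells 2.53 and 0.610, and Ppy+Gcg+ cells 0.751 and 0. The Ins2+ sums thus stood far above all others in both experiments. With Ppy+ cells set at the limit of 3 UMIs over both sums, Mafa was at least 1014-fold higher in Ins2+ cells. Against Gcg+ cells the log2 fold change was 7.56 ± 0.29 (SE; adjusted p = 8.37e-23) and against Sst+ cells 6.71 ± 0.40 (adjusted p = 2.14e-16).

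The few Mafa UMIs outside the insulin classes are given beside those of non-endocrine cells. Gcg+ cells held 6 and 4 UMIs and Sst+ cells 2 and 2, all from YFP- libraries. Non-endocrine cells of those YFP- libraries had 6.23 and 1.21 CPM (raw scale), against 2.22 and 1.57 in Gcg+ cells and 4.22 and 5.44 in Sst+ cells. For every 10000 Ins2 UMIs, Mafa had 3.64 and 4.32 UMIs in Ins2+ cells, 2.63 and 4.75 in Gcg+ cells and 3.95 and 12.5 in Sst+ cells. It had 0 and 0 in Ppy+ cells, which held 7651 and 2763 Ins2 UMIs. A Mafa UMI was found in 1.92% and 1.25% of Gcg+ cells (median depth 7709 and 6464 UMIs). The share was 1.82% and 1.63% of Sst+ cells (4136 and 2962 UMIs) and 3.66% and 0.586% of the non-endocrine YFP- cells (4636 and 3161 UMIs). The exact 95% intervals of the 4 Gcg+ and Sst+ shares, which reach from 0.198% to 6.41%, each contain the share of the non-endocrine cells of the same libraries. Intervals from so few UMIs cannot show whether these UMIs are background, which was not tested. In the YFP+ libraries the 46 and 116 non-endocrine cells held 0 Mafa UMIs. Mafa passed the test in Sst+ against Ppy+ cells (adjusted p = 0.0242, or 0.0880 without the experiment as a block, range over the alternatives 0.00173 to 0.0880) and was lower in Ppy+ than in Gcg+ cells (adjusted p = 0.0113, or 0.0684 without the block, range 4.49e-04 to 0.0684). Both comparisons set the few UMIs of classes from the YFP- libraries against 0 UMIs in Ppy+ cells.

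**Figure D1:**
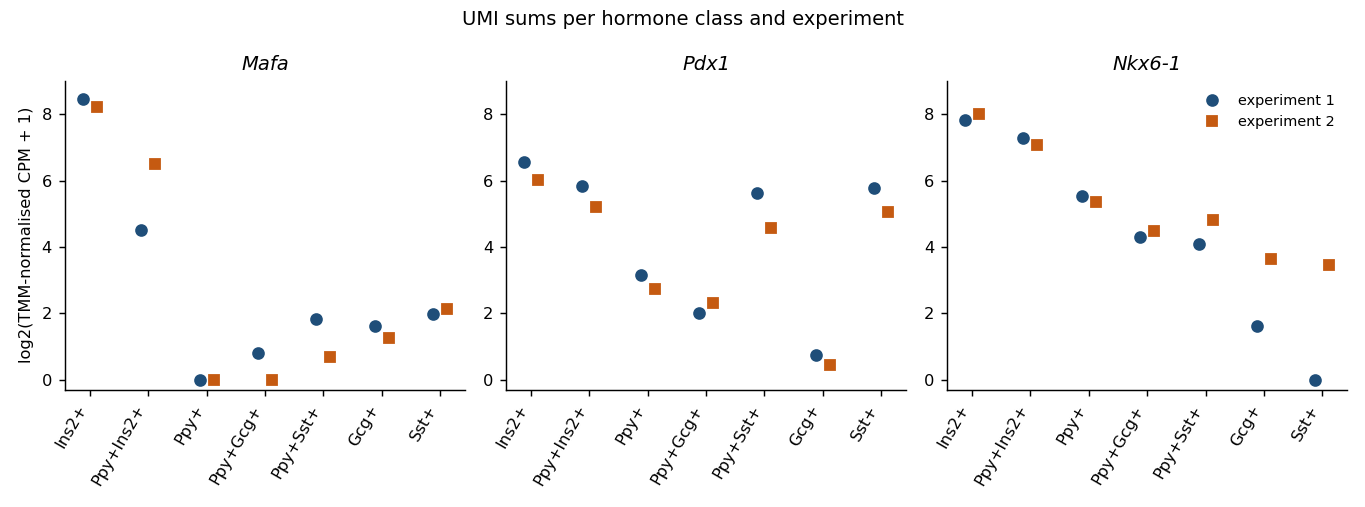
Level of Mafa, Pdx1 and Nkx6-1 (TMM-scaled CPM of UMIs) in each of the 7 hormone classes, 1 point per experiment (n = 2). Mafa was at 353 and 299 CPM in Ins2+ cells and at 0 in Ppy+ cells, Pdx1 was shared by the Ins2+ and Sst+ classes, and Nkx6-1 stood at 45.8 and 40.1 CPM in Ppy+ cells.

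Pdx1, the factor shared by β- and δ-cells, was present in every class that contained Ins2 or Sst. Its level was 92.8 and 64.4 CPM in Ins2+ cells, 56.3 and 36.1 in Ppy+Ins2+ cells, 54.3 and 31.8 in Sst+ cells and 48.2 and 22.6 in Ppy+Sst+ cells. Monohormonal Ppy+ cells had 7.83 and 5.60 CPM, Ppy+Gcg+ cells 3.00 and 3.94, and Gcg+ cells 0.681 and 0.343, the last from 2 and 1 UMIs. The order of the classes was the same in both experiments. Experiment 1 was higher than experiment 2 in all classes but Ppy+Gcg+, and within each experiment the 4 classes with Ins2 or Sst lay above the 3 without.

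Ins2+ cells exceeded Ppy+ cells in Pdx1 by 3.52 ± 0.19 on the log2 scale (11.5-fold; adjusted p = 1.14e-18) and Gcg+ cells by 7.11 ± 0.34 (adjusted p = 2.85e-20). Sst+ cells exceeded Ppy+ cells by 2.67 ± 0.29 (6.39-fold; adjusted p = 3.11e-09) and Gcg+ cells by 6.26 ± 0.49 (adjusted p = 3.13e-13). The neighbours at the top of the order were closer. Ins2+ exceeded Sst+ cells by 0.85 ± 0.22 (1.80-fold; adjusted p = 0.00381), a call lost without the block (adjusted p = 0.0950) and with DESeq2 (0.0582), in a range of 0.00152 to 0.0950. Ppy+Sst+ and Sst+ cells differed by -0.32 ± 0.26 (adjusted p = 0.831), and their sums overlapped, as did those of Ppy+Ins2+ and Sst+ cells, which were not tested against each other.

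The low Pdx1 level of Ppy+ cells is given beside that of other cells. A Pdx1 UMI was found in 5.33% and 3.15% of Ppy+ cells (median depth 7640 and 5909 UMIs), against 6.52% and 1.72% of the non-endocrine cells of the YFP+ libraries (4164 and 2845 UMIs) and 1 of 27 and 0 of 73 of their endothelial, stromal and immune cells. Raw levels were 6.59 and 4.73 CPM in Ppy+ cells and 9.48 and 7.12 CPM in those non-endocrine cells. Hormone genes took 52.5% and 53.3% of the UMIs of Ppy+ cells, which lowers their raw levels. The order of these raw levels therefore does not show which cells held more Pdx1. The non-endocrine cells include acinar cells, which had 13.3 CPM of Pdx1 over all libraries. Endothelial, immune and stromal cells of all 4 libraries had 2.24 CPM (exact Poisson interval 0.900 to 4.61), below both Ppy+ values, but those of the YFP+ libraries were few and held 1 and 0 UMIs. Ppy+ cells nevertheless passed the test against Gcg+ cells (3.59 ± 0.55, adjusted p = 3.39e-06), whose raw level of 0.740 and 0.393 CPM was below that of the non-endocrine YFP- cells (5.86 and 4.84 CPM).

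Nkx6-1, the other homeodomain factor of adult β-cells, was found in monohormonal Ppy+ cells at a level between those of Ins2+ and Gcg+ cells. It stood at 225 and 256 CPM in Ins2+ cells, 153 and 133 in Ppy+Ins2+ cells and 45.8 and 40.1 in Ppy+ cells. Ppy+Sst+ cells had 16.1 and 26.8 CPM, Ppy+Gcg+ cells 18.5 and 21.4, Gcg+ cells 2.04 and 11.3, and Sst+ cells 0 and 10.1. The first 3 classes held this order in both experiments with no overlap, the levels of Ppy+Sst+ and Ppy+Gcg+ cells overlapped, and those of Gcg+ and Sst+ cells did so too. The Sst+ value of experiment 2 came from 6 UMIs in 3 cells.

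Ppy+ cells exceeded Gcg+ cells in Nkx6-1 by 2.69 ± 0.28 on the log2 scale (6.46-fold; adjusted p = 7.18e-10) and Sst+ cells by a fold of 9.08 (log2 fold change of Sst+ against Ppy+ cells -3.18 ± 0.53, adjusted p = 1.74e-05). With sums per library the difference from Gcg+ cells was 1.58 (adjusted p = 0.0350; range over the alternatives 1.92e-30 to 0.0350). Without experiment 1 it was 1.82 and without experiment 2 it was 4.45, since Gcg+ cells carried 6 UMIs in experiment 1 and 33 in experiment 2. The difference from Sst+ cells missed the threshold when sums were taken per library (-2.03, adjusted p = 0.0749; range over the alternatives 1.73e-12 to 0.0749), and without experiment 1 it was -2.01. Ins2+ cells stood above Ppy+ cells by 2.48 ± 0.17 (5.56-fold; adjusted p = 1.47e-15), or 3.65 with sums per library (range of adjusted p 1.81e-69 to 3.42e-05), above Gcg+ cells by 5.17 ± 0.24 (4.51 without experiment 1, 6.76 without experiment 2) and above Sst+ cells by 5.66 ± 0.40 (4.69 without experiment 1). Sst+ and Gcg+ cells differed by -0.49 ± 0.78 (adjusted p = 0.788).

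Nkx6-1 was detected in a larger share of Ppy+ cells than of the non-endocrine cells of the same libraries, at greater total depth. The share was 25.9% and 19.3% of Ppy+ cells (exact 95% intervals 22.7 to 29.4% and 16.6 to 22.3%, counting error only), against 6.52% and 8.62% of non-endocrine YFP+ cells and 0 of 27 and 1 of 73 of the endothelial, stromal and immune cells among them. Median depth was 7640 and 5909 UMIs in Ppy+ and 4164 and 2845 in the non-endocrine YFP+ cells, hormone UMIs included. Raw levels were 38.5 and 33.9 CPM in Ppy+ cells, 15.8 and 28.5 CPM in the non-endocrine cells (5 and 16 UMIs) and 0 and 5.55 CPM in the endothelial, stromal and immune cells (0 and 1 UMIs). Hormone genes took 52.5% and 53.3% of the UMIs of Ppy+ cells, which lowers their raw levels. The nearness of the 2 raw levels in experiment 2 therefore does not show like amounts of Nkx6-1, and levels outside the hormone genes were not compared. In Gcg+ cells, at similar depth, the share was 1.92% and 7.79%.

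Pax4, the factor of endocrine progenitors, had 0 UMIs in every class and in all other cells, and was not tested. The limit of 3 UMIs over both sums was 0.322 CPM in Ppy+ cells, 0.497 in Ins2+ cells, 0.512 in Gcg+ cells and 2.35 in Sst+ cells, so a level under these was not detectable at this depth.

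**Figure D2:**
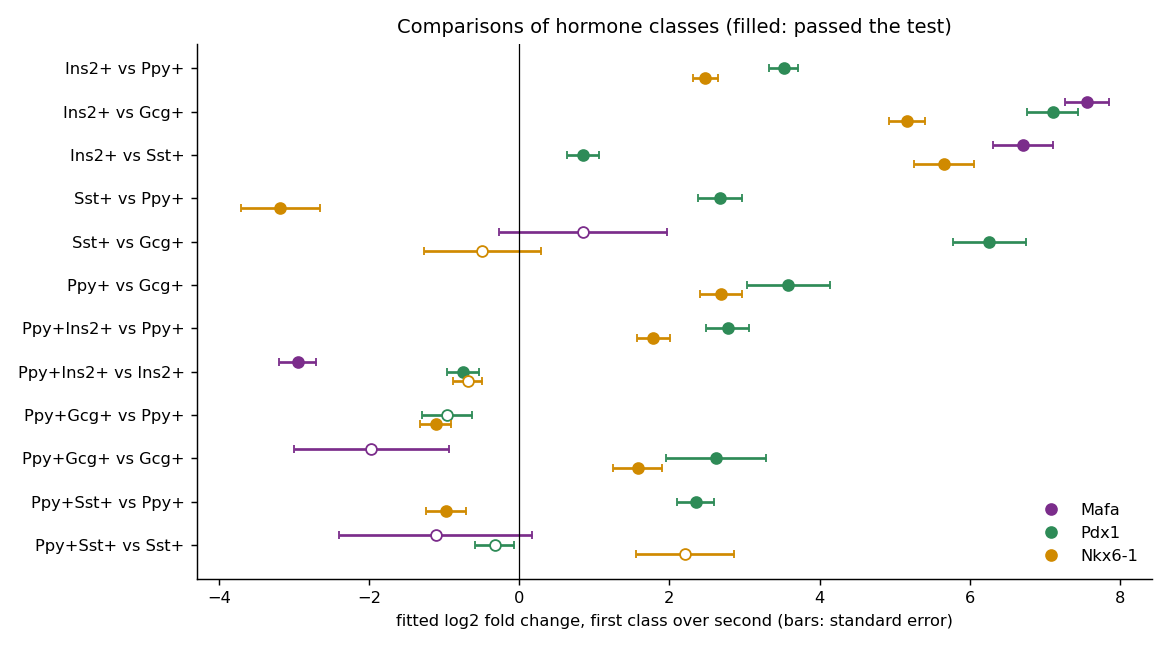
Log2 fold change (edgeR) of Mafa, Pdx1 and Nkx6-1 in the 12 comparisons between hormone classes, with bars of 1 SE. Filled points passed the test. Mafa comparisons against Ppy+ cells, a class without a Mafa UMI, are left out because their fitted fold depends on the prior count.

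Of the 4 members, 3 passed the filter on low counts and could be called. In Ins2+ against Ppy+ cells 3 were called, all higher, where 26.6% of all genes tested were called, 14.2% higher and 12.4% lower. In Ins2+ against Gcg+ cells 3 were called, all higher (22.3% of all genes, 11.7% higher and 10.6% lower), and in Ins2+ against Sst+ cells 3, all higher (14.8%, 7.72% higher and 7.05% lower). In Sst+ against Ppy+ cells 3 were called, Mafa and Pdx1 higher and Nkx6-1 lower (11.6%, 6.49% higher and 5.08% lower). In Sst+ against Gcg+ cells Pdx1 was the 1 called, higher (11.6%, 6.3% higher and 5.31% lower). In Ppy+ against Gcg+ cells 3 were called, Pdx1 and Nkx6-1 higher and Mafa lower (12.7%, 5.94% higher and 6.79% lower). The filter took all classes together, and nearly all Mafa UMIs lay in those with Ins2. The Mafa calls in Sst+ against Ppy+ and in Ppy+ against Gcg+ cells set a few UMIs against 0 in Ppy+ cells. Both were lost without the block.

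Because Ins2+ cells were sequenced more deeply and hormone genes took 74.9% and 70.7% of their UMIs, against 52.5% and 53.3% in Ppy+ cells, detection was also compared after each cell had been thinned to 1000 UMIs outside the hormone genes. Mafa was then detected in 42.5% and 45.6% of Ins2+ cells (77.9% and 66.7% before thinning) and in 3.57% and 7.69% of Ppy+Ins2+ cells (11.9% and 23.1% before). Nkx6-1 was detected in 36.7% and 44.4% of Ins2+ cells, 32.1% and 33.3% of Ppy+Ins2+ cells and 7.88% and 6.74% of Ppy+ cells. Pdx1 reached 16.9% and 11.1% of Ins2+ cells, 10.0% and 5.93% of Sst+ cells and 1.49% and 0.674% of Ppy+ cells. At equal depth the order of the classes was therefore close to that of the levels. Thinning left out 2 Ins2+, 21 Ppy+, 5 Sst+ and 0 Ppy+Ins2+ cells as too shallow.

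**Figure D3:**
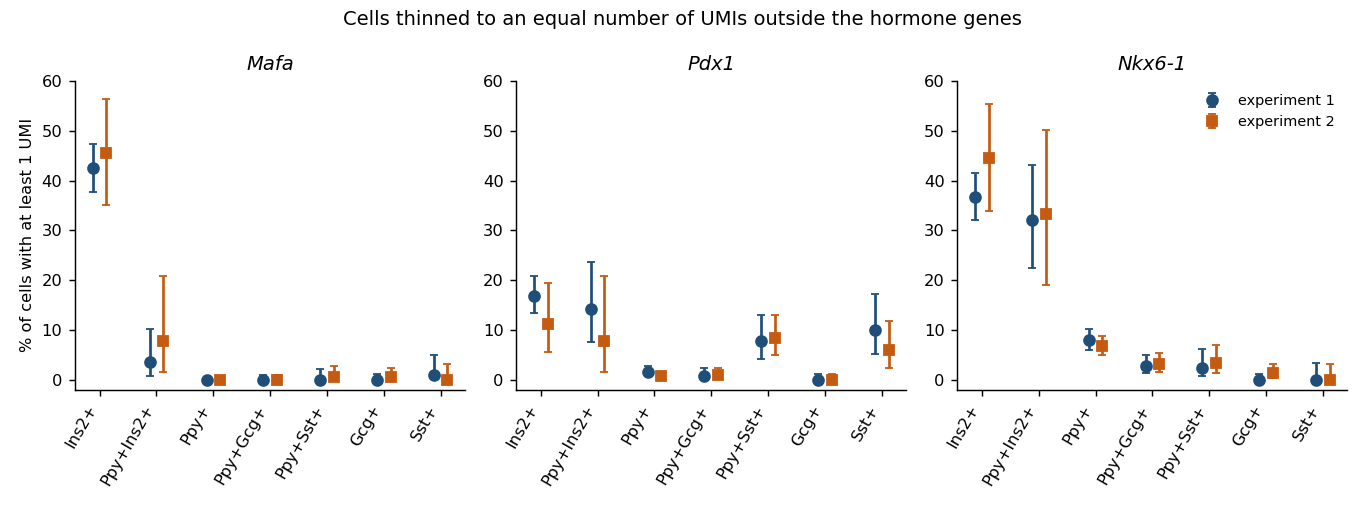
Share of cells (%) with at least 1 UMI of each factor after thinning to 1000 UMIs outside the hormone genes, by class and experiment, with exact 95% binomial intervals that cover counting error only. Mafa was found in 42.5% and 45.6% of Ins2+ cells and in 3.57% and 7.69% of Ppy+Ins2+ cells, whereas the shares with Nkx6-1 in these classes were 36.7% and 44.4% against 32.1% and 33.3%.

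Mafa, Pdx1 and Nkx6-1 were found together, at full depth, in 202 of 435 Ins2+ cells of experiment 1 (46.4%) and 17 of 90 of experiment 2 (18.9%). In Ppy+Ins2+ cells this held for 4 of 84 (4.76%) and 2 of 39 (5.13%), and in the other 5 classes for 0 cells. Most Ppy+ cells, 71.1% and 78.3%, showed no UMI of the 3 factors, and Nkx6-1 was the only one found in 159 and 141 Ppy+ cells. Median depth was 23879 and 12415 UMIs in Ins2+, 10790 and 7705 in Ppy+Ins2+ and 7640 and 5909 in Ppy+ cells. These shares therefore depend on depth, and a cell without a UMI may still express the gene.

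Ppy+Ins2+ cells, which hold transcripts of both hormones, carried Pdx1 and Nkx6-1 somewhat below the Ins2+ level and Mafa further below it. The YFP+ libraries gave 73 and 36 of these cells and the YFP- libraries 11 and 3, whereas Ins2+ cells came almost wholly from YFP- libraries. Class and sorted fraction can therefore hardly be told apart between Ppy+Ins2+ and Ins2+ cells. The Mafa level of Ppy+Ins2+ cells was 21.6 and 88.8 CPM, under the 353 and 299 CPM of Ins2+ cells in both experiments. It came from 18 UMIs in 10 of 84 cells and 32 UMIs in 9 of 39 cells, with up to 3 and 11 UMIs in a cell. In experiment 2 the 3 YFP- cells held 11 of the 32 UMIs. The log2 fold change against Ins2+ cells was -2.95 ± 0.25 (7.72-fold lower; adjusted p = 1.94e-11). It was -4.04 without experiment 2 and -1.75 without experiment 1, both further from the fitted value than the SE. DESeq2 did not call it (-2.47, adjusted p = 0.253; range over the alternatives 1.67e-46 to 0.253). Against Ppy+ cells, where no UMI was found, Mafa passed the test (adjusted p = 2.54e-11).

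Pdx1 in Ppy+Ins2+ cells was 2.78 ± 0.29 above Ppy+ cells on the log2 scale (6.86-fold; adjusted p = 1.52e-09) and 0.74 ± 0.21 below Ins2+ cells (log2 fold change -0.74, adjusted p = 0.0356). The latter call was lost in 4 of 8 alternatives, among them the fit without the block (adjusted p = 0.427; range 0.0207 to 0.705). Nkx6-1 was 1.79 ± 0.22 above Ppy+ cells (3.45-fold; adjusted p = 6.73e-08). Its difference from Ins2+ cells, -0.69 ± 0.19 (adjusted p = 0.0332), stayed under the fold threshold, and was called at -1.75 with sums per library (range of adjusted p 4.28e-04 to 0.525). In all, 3 members were called higher than in Ppy+ cells, where 7.52% of all genes were called, 4.85% higher and 2.67% lower. Called lower than in Ins2+ cells were 2, where 3.51% of all genes were called, 1.63% higher and 1.88% lower.

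Mafa differed between the clusters that held Ppy+Ins2+ and Ins2+ cells, and in experiment 1 also between the classes within clusters 5, 6 and 7. Cluster 6, led by Defb1, S100a6, Bace2, Iapp and Ins2, held 98 of the 123 Ppy+Ins2+ cells (79.7%) and 79 of the 525 Ins2+ cells (15.0%), the other Ins2+ cells being in clusters 5 (279 cells) and 7 (167 cells). In CPM of the UMIs outside the hormone genes, Mafa in Ins2+ cells was 879 and 951 in cluster 5, 687 and 222 in cluster 7, and 50.2 and 0 in cluster 6 (70 and 9 cells). Ppy+Ins2+ cells of cluster 6 had 2.96 and 26.5, from 1 and 3 UMIs in 70 and 28 cells. Monohormonal Ins2+ cells of this cluster thus also had little Mafa, and in Ppy+Ins2+ cells most Mafa UMIs lay in the 21 cells of clusters 5 and 7, with 9 and 21 UMIs in cluster 5 and 5 and 8 in cluster 7. On the same scale these Ppy+Ins2+ cells had 283 and 762 in cluster 5 (6 and 4 cells) and 196 and 339 in cluster 7 (5 and 6 cells). Ppy+Ins2+ cells were below Ins2+ cells in clusters 5, 6 and 7 in experiment 1, and in cluster 5 only in experiment 2.

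Pdx1 and Nkx6-1 did not divide the clusters in this way. On the same scale, Pdx1 in Ins2+ cells was 183 and 124 in cluster 5, 206 and 151 in cluster 7, and 162 and 217 in cluster 6, and in Ppy+Ins2+ cells of cluster 6 it was 124 and 70.7. Nkx6-1 was 456 and 606, 473 and 483, and 398 and 489 in Ins2+ cells of the 3 clusters, and 323 and 301 in Ppy+Ins2+ cells of cluster 6. Since clusters were drawn from the expression of these same cells, the values are a description without a test. Median depth was 14768 and 8532 UMIs in the Ins2+ cells of cluster 6 and 26154 and 13250 in those of cluster 5, and the part of depth was not tested beyond the scaling.

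**Figure D4:**
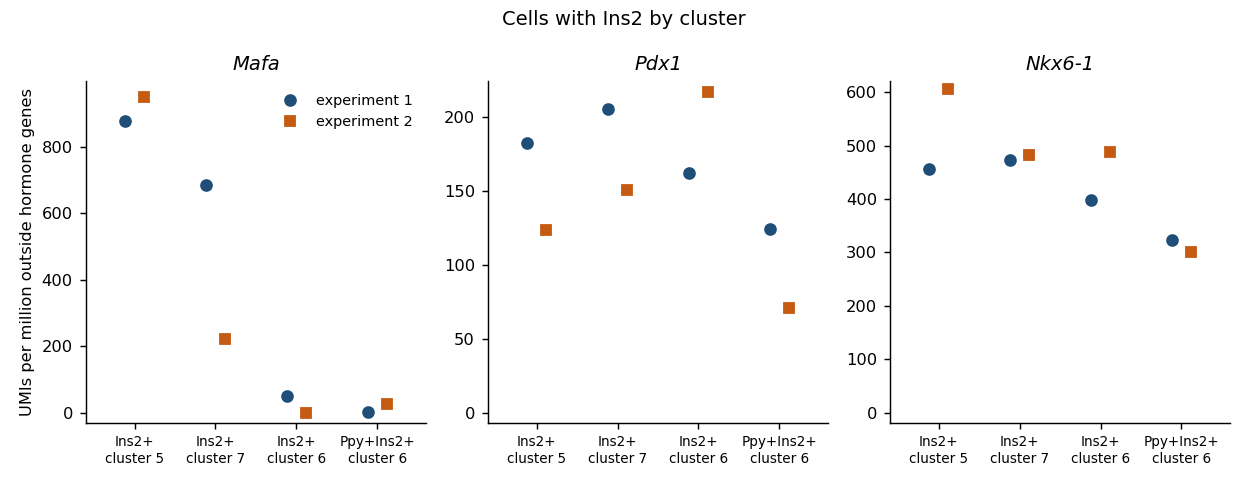
Mafa, Pdx1 and Nkx6-1, in CPM of the UMIs outside the hormone genes, in Ins2+ cells of clusters 5, 7 and 6 and in Ppy+Ins2+ cells of cluster 6, 1 point per experiment. Mafa was 879 and 951 in Ins2+ cells of cluster 5 and 50.2 and 0 in those of cluster 6, where Pdx1 was 162 and 217 and Nkx6-1 398 and 489.

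In Ppy+Gcg+ cells the Nkx6-1 level lay between those of the parent classes. Their 18.5 and 21.4 CPM lay between Ppy+ cells (-1.11 ± 0.21 on the log2 scale, adjusted p = 4.06e-04) and Gcg+ cells (1.58 ± 0.33, adjusted p = 0.00147). Neither call held without the block (adjusted p = 0.242 and 0.181). The first was also lost with DESeq2 (0.130; range 1.94e-08 to 0.242), and the second with sums per library (0.58, adjusted p = 0.932; range 2.68e-07 to 0.932). Without experiment 1 the difference from Gcg+ cells was 0.92, and without experiment 2 it was 3.15. The sorted fractions gave 20.9 and 22.6 raw CPM in YFP+ and 8.60 and 21.2 in YFP- Ppy+Gcg+ cells. Non-endocrine YFP+ cells had 15.8 and 28.5 raw CPM, and the endothelial, stromal and immune cells among them 0 and 5.55. Hormone genes took 41.1% and 42.9% of the UMIs of Ppy+Gcg+ cells, which lowers their raw levels. Levels outside these genes were not compared. Pdx1 was not called against Ppy+ cells (-0.96 ± 0.33, adjusted p = 0.0844) and was higher than in Gcg+ cells (2.62 ± 0.67, adjusted p = 0.0122), a call lost without the block (0.230) and in 2 other alternatives (range 0.00779 to 0.230). The member called against Ppy+ cells was 1, lower (2.86% of all genes, 1.91% higher and 0.951% lower), and 2 were called against Gcg+ cells, both higher (3.3% of all genes, 1.47% higher and 1.83% lower).

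In Ppy+Sst+ cells Pdx1 was not called against Sst+ cells, and the Nkx6-1 level lay between those of both parent classes. Only 0.499% of all genes were called between Ppy+Sst+ and Sst+ cells, so a missing call is not particular to Pdx1. Cluster 3 held 157 of 167 and 180 of 216 Ppy+Sst+ cells, and all 110 and 123 Sst+ cells. Pdx1 exceeded Ppy+ cells by 2.35 ± 0.25 on the log2 scale (5.10-fold; adjusted p = 1.57e-09). Nkx6-1 was below Ppy+ cells (-0.97 ± 0.27, adjusted p = 0.0115), a call lost without the block (0.230) and with DESeq2 (0.154; range 1.54e-04 to 0.230), and it was 2.21 ± 0.65 above Sst+ cells without being called (adjusted p = 0.148). Nkx6-1 went with the sorted fraction, at 30.8 and 39.3 raw CPM in the YFP+ and 3.25 and 10.3 raw CPM in the YFP- cells of this class. Non-endocrine cells showed a like split, with 15.8 and 28.5 CPM in YFP+ and 2.57 and 3.14 CPM in YFP- cells, and the part of the sort in these values was not tested. Against Ppy+ cells 2 members were called, Pdx1 higher and Nkx6-1 lower (7.67% of all genes, 5.23% higher and 2.44% lower), and against Sst+ cells 0 by edgeR (0.499% of all genes, 0.264% higher and 0.235% lower), where 1, Nkx6-1, had an unadjusted p under 0.05 and DESeq2 also called 0.

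The wider β-cell network was described with a list of 18 further transcription factors such as Neurod1, Nkx2-2 and Isl1. Of the 15 that could be tested, 7 were higher and 1 (Isl1) lower in Ins2+ than in Ppy+ cells, with a median log2 fold change of 0.88 against a median over all genes of -0.0013. Of all genes, 14.2% were called higher and 12.4% lower in that comparison. The 7 included Insm1 (2.47 ± 0.16), a zinc-finger factor of endocrine differentiation, Rfx6 (2.16 ± 0.28), which maintains β-cell function, and Neurod1 (1.08 ± 0.12), a partner of Mafa at the insulin promoters. In Ppy+Ins2+ against Ppy+ cells 4 were higher, where 4.85% of all genes were called higher and 2.67% lower. Between Ppy+Ins2+ and Ins2+ cells 0 of 15 were called by edgeR, where 3.51% of all genes were called. At so low a share, 0 of 15 does not set these factors apart from other genes.

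A last list held genes of β-cell function known to depend on these factors. Of 13 listed, 12 were in the files and 11 could be tested. In Ins2+ against Ppy+ cells 9 were higher (median 4.92), and in Ppy+Ins2+ against Ppy+ cells 8 were higher and 1 lower (median 3.42). Of all genes, 14.2% were called higher in the former comparison, and 4.85% higher and 2.67% lower in the latter. In Ppy+Ins2+ against Ins2+ cells 6 were lower and 0 higher (median -0.91): Ucn3, a peptide of mature β-cells (-2.56), G6pc2, an islet glucose-6-phosphatase (-2.07), Ins1 (-2.01), Slc2a2, the glucose transporter (-1.99), Slc30a8, the zinc transporter of insulin granules (-1.49), and Pcsk1, a proinsulin convertase (-0.91). Iapp was not among the 6. Of all genes, 1.88% were called lower and 1.63% higher in this comparison. The listed genes, unlike the members, also took part in drawing the clusters, so their counts are descriptive.

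The profiles of the members over the 14 sums differed from each other. The genes most like Mafa, by Pearson's r of log2 CPM, were Ins1 (0.973), Atp2a2 (0.972), Slc2a2 (0.968), Cd79a (0.968) and Tmem215 (0.963). Those most like Pdx1 were Igf1r (0.974), Gm27033 (0.966), Baiap2 (0.965), Jakmip1 (0.958) and Pax6 (0.956), and those most like Nkx6-1 were Rab3d (0.923), Tnfrsf9 (0.920), Msmo1 (0.914), Isg20 (0.913) and Syt13 (0.910). Among the members r was 0.649 for Mafa with Pdx1, 0.612 for Mafa with Nkx6-1 and 0.398 for Pdx1 with Nkx6-1, and Pdx1 ranked 788 of 10620 genes in likeness to Mafa. The sums of one experiment share mice and libraries, so these are descriptions.

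In bulk RNA-seq, the γ-libraries had far more Nkx6-1 than the δ-libraries, like amounts of Pdx1, traces of Mafa and no Pax4. The γ-libraries held 111204416 reads in genes in all and the δ-libraries 30043116, and levels are TMM-scaled CPM. Nkx6-1 was 74.5, 102, 87.5, 94.1 and 86.2 CPM in γ-libraries 1 to 5 (mean 88.9 ± 10.3, SD, n = 5) and 20.6, 30.0 and 21.0 in δ-libraries 1 to 3 (23.9 ± 5.34, n = 3). Every γ-library was above every δ-library. The log2 fold change was 1.89 ± 0.16 (3.71-fold; edgeR adjusted p = 4.10e-06 over 17926 genes).

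Pdx1 did not separate the cell types in bulk. It was 40.7, 50.6, 39.6, 36.2 and 47.8 CPM in γ-libraries (43.0 ± 5.98) and 33.7, 49.5 and 61.8 in δ-libraries (48.3 ± 14.1). The ranges overlapped, and the log2 fold change was -0.17 ± 0.19 (adjusted p = 0.458). In single cells, by contrast, Pdx1 was 6.39-fold higher in Sst+ than in Ppy+ cells. The bulk γ-level belongs to all YFP+ cells together. Single-cell YFP+ libraries held 674 and 754 Ppy+ cells, 337 and 332 Ppy+Gcg+ cells, 96 and 155 Ppy+Sst+ cells and 73 and 36 Ppy+Ins2+ cells. Pdx1 in Ppy+Sst+ and Ppy+Ins2+ cells was several times that of Ppy+ cells. In Ppy+Gcg+ cells it was lower, at 3.00 and 3.94 CPM against 7.83 and 5.60 CPM in Ppy+ cells. The part of the bihormonal classes in the unlike bulk and single-cell results was not tested. In a bulk library fewer cells of a type and less RNA per cell cannot be told apart. Transcripts of other hormones were present in the libraries of both cell types. The γ-libraries carried 7400 to 12553 CPM of Sst, 5495 to 17401 of Ins2 and 46834 to 94482 of Gcg. The δ-libraries carried 808 to 2161 CPM of Ins2, 1347 to 5787 of Gcg and 9410 to 15522 of Ppy. The 6 β-cell markers summed to 10288 to 24296 CPM in γ- and 3583 to 5022 CPM in δ-libraries, and the part of these transcripts in the values of the members was not tested.

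Mafa was low in γ-libraries and near the limit of detection in δ-libraries. The γ-libraries held 60, 46, 13, 17 and 29 reads (1.96, 2.48, 0.627, 0.822 and 2.16 CPM, mean 1.61 ± 0.832) and the δ-libraries 0, 0 and 1. All γ-libraries were above all δ-libraries, and the pooled ratio was 53.4, with a counting interval of 9.45 to 2121 (95%). The fitted log2 fold change of 5.46 ± 1.05 (adjusted p = 0.00142) depends on the prior count at such low levels. It was 3.41 with DESeq2 and shrinkage, 4.95 without δ-library 2 and 7.85 without δ-library 3 (range of adjusted p over the alternatives 2.02e-04 to 0.0192). The 5 γ-libraries stood in the same order for Mafa as for Ins2, which was 11560, 17401, 5495, 9843 and 13612 CPM in libraries 1 to 5. In single cells the call went the other way, with Mafa higher in Sst+ cells (2 and 2 UMIs) than in Ppy+ cells (0 and 0). That call was lost without the block. The bulk γ-level belongs to all YFP+ cells together. In the single-cell YFP+ libraries, Ppy+Ins2+ cells held 17 and 21 Mafa UMIs and Ppy+ cells 0 and 0. The part of each class in the bulk Mafa level was not tested. Pax4 had 0 reads in the 5 γ-libraries, which allows up to 0.0289 CPM, and 2, 2 and 0 reads in the δ-libraries, so it failed the filter.

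**Figure D5:**
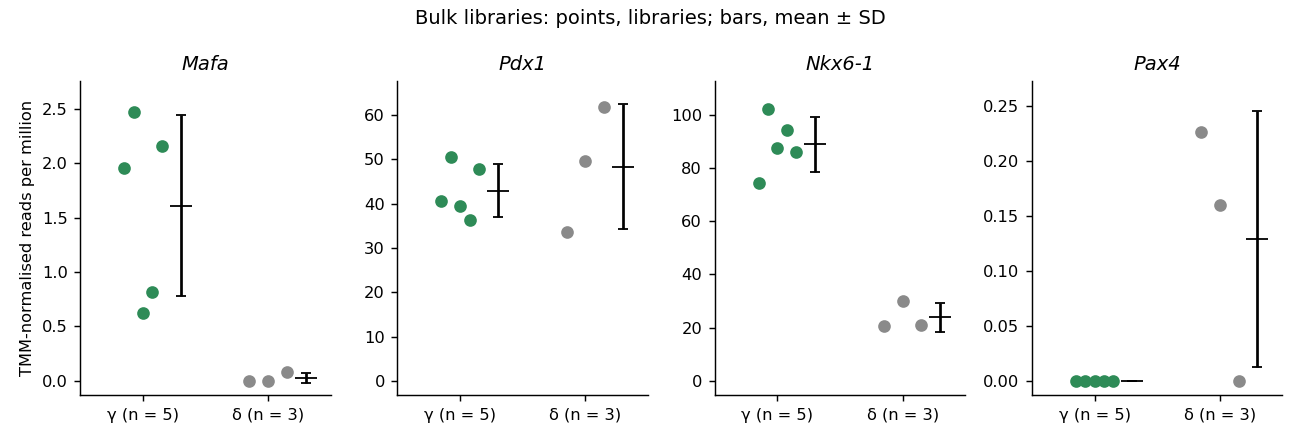
Bulk levels of the 4 factors (TMM-scaled CPM) in 5 γ-cell and 3 δ-cell libraries, with means and SD. Nkx6-1 was 74.5 to 102 CPM in γ-libraries and 20.6 to 30.0 in δ-libraries, while the Pdx1 ranges overlapped.

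Per kilobase of exon, γ-libraries had 28.3 CPM of Nkx6-1, 19.9 of Pdx1, 0.588 of Mafa and 0 of Pax4. The order in δ-libraries was 22.4 CPM per kilobase of Pdx1, 7.61 of Nkx6-1, 0.0890 of Pax4 and 0.00991 of Mafa. The Pdx1 values may be understated because of the overlap with Plut, so the order of Pdx1 and Nkx6-1 in γ-libraries is uncertain. Of the members tested, 2 of 3 were called, both higher in γ-libraries, where 35% of all genes were called, 20.7% higher and 14.2% lower. Of the other factors of the β-cell network 6 were higher, 4 lower and 7 not called of 17 (median log2 fold change 0.078 against -0.055 over all genes). Among the target genes 5 of 12 were higher and 1 lower (median 0.68). The cell type cannot be told apart from the sequencing run, since γ-libraries were sequenced paired-end and δ-libraries single-end, on different machines. Acinar transcripts were also unequal, with 20 marker genes summing to 2961 to 17687 CPM in γ-libraries and 28102 to 116560 CPM in δ-libraries, and their part in these differences was not tested.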

How the data were processed

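The authors deposited UMI counts per gene and cell for 4 single-cell libraries (Chromium Single Cell 3′, counted with Cell Ranger on mm10 with YFP and rtTA added) and read counts per gene for the bulk libraries (STAR 2.7.2b, HTSeq 0.9.1 in union mode, GRCm38.p6). The deposited counts were used unchanged. The bulk table held 6 further columns of α- and β-cells, which match no sample of this series and were not used here. Single-cell libraries held 10683494 to 18330975 UMIs.

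Cells were integrated and clustered in Seurat 5.3.0 without the 4 factors, after removal of doublets. These were sought per experiment, over its YFP+ and YFP- libraries together. The YFP+ and YFP- libraries lost 8 and 53 cells in experiment 1, and 11 and 56 in experiment 2. Hormone classes followed local minima in the hormone distributions, and monohormonal cells outside clusters of their hormone were left out. Bihormonal cells were kept whatever their cluster, whereas the authors excluded those lying outside their bihormonal cluster. UMI sums per class and experiment were tested with edgeR 4.0.16 (R 4.3.3; TMM, filterByExpr, quasi-likelihood, experiment as a block) in 12 comparisons. Bulk genes with a mean of at least 5 reads were tested without a covariate, with calls needing an adjusted p no larger than 0.05 together with a log2 fold change of 1 or more in either direction. Alternatives were DESeq2 1.42.0, other scalings, filters and class rules, sums per library, no block, and each replicate left out. Libraries without a number in their label were taken as experiment 1. YFP+ and YFP- cells of an experiment came from the same mice, and deviations of the 7 classes from their means correlated at 0.0912 to 0.432 between classes of an experiment. Zero counts were bounded with 3 counts, and shares with exact 95% intervals, which cover counting error only. Promoter windows are RefSeq's, on GRCm38.p6. The statistics were tested on simulated data.

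Named genes were the 4 members, the 5 genes most correlated with each tested member, and genes from 2 lists, of related factors and of targets. A further list of factors is not reported here. The members and lists were chosen with earlier results of these data known.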

Additional observations from a re-analysis of the deposited data

Results flagged for a closer look

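Endocrine cells with hormone combinations outside the 7 classes, and non-endocrine cells, were not used in the comparisons, and in some of them the factors stood above the level of endothelial, immune and stromal cells, which should lack them (693 cells: Mafa 2.24, Pdx1 2.24 and Nkx6-1 1.60 CPM, raw scale). Mafa was at 175 CPM in the 10 Ins2+Sst+ cells, 74.4 CPM in the 18 Gcg+Ins2+ cells and 12.4 CPM in the 173 cells with 3 or 4 hormones. Pdx1 was at 54.5 CPM in Ins2+Sst+ cells, 41.7 CPM in Gcg+Ins2+ cells, 21.7 CPM in cells with 3 or 4 hormones and 16.5 CPM in the 53 Gcg+Sst+ cells. Nkx6-1 was at 97.2 CPM in Ins2+Sst+ cells, 89.3 CPM in Gcg+Ins2+ cells and 52.6 CPM in cells with 3 or 4 hormones. Among the non-endocrine cells, Pdx1 was at 13.3 CPM and Nkx6-1 at 11.6 CPM in the 171 acinar-marked cells, and Nkx6-1 was at 6.45 CPM in the 561 cells of a cluster with ductal and immune markers. These groups were pooled over libraries and carry no test. Among the 5 bulk γ-libraries, no level of Mafa, Pdx1 or Nkx6-1 stood apart from the others by Dixon's criterion. The 3 δ-libraries were too few for it, and Pax4 was at 0 in all γ-libraries.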

How the results depend on the processing

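Of the values of single members in the 12 single-cell comparisons, 288 came from alternatives with a test, of which 263 kept their direction and their side of the threshold, 19 lost the call and 6 gained it. A further 72 came from leaving out an experiment and have no test, and of these 60 moved by less than the spread between replicates and 12 by more. Without the cluster requirement the log2 fold changes of Pdx1 against Gcg+ cells were 5.96 in Ins2+, 5.14 in Sst+ and 2.63 in Ppy+ cells, each still called. Without the replicate block, calls were lost for Mafa in Sst+ against Ppy+ (5.95) and Ppy+ against Gcg+ cells (-5.10), for Pdx1 in Ins2+ against Sst+ (0.91), Ppy+Ins2+ against Ins2+ (-0.74) and Ppy+Gcg+ against Gcg+ cells (2.64), and for Nkx6-1 in Ppy+Gcg+ against Ppy+ (-1.11), Ppy+Gcg+ against Gcg+ (1.57) and Ppy+Sst+ against Ppy+ cells (-0.96). With DESeq2 they were lost for Mafa in Ppy+Ins2+ against Ins2+ cells (-2.47), for Pdx1 in Ins2+ against Sst+ (0.82), Ppy+Ins2+ against Ins2+ (-0.73) and Ppy+Gcg+ against Gcg+ cells (2.76), and for Nkx6-1 in Ppy+Gcg+ (-1.14) and Ppy+Sst+ against Ppy+ cells (-1.03). Sums per library lost Pdx1 in Ppy+Ins2+ against Ins2+ (-0.42) and Nkx6-1 in Sst+ against Ppy+ (-2.03) and Ppy+Gcg+ against Gcg+ cells (0.58), and gained Nkx6-1 in Ppy+Ins2+ against Ins2+ (-1.75) and Mafa in Ppy+Sst+ against Ppy+ cells (4.32). Raised hormone thresholds lost Pdx1 in Ppy+Ins2+ against Ins2+ cells (-0.68). Without the cluster requirement Pdx1 was lost in Ppy+Gcg+ against Gcg+ (1.49) and gained in Ppy+Gcg+ against Ppy+ cells (-1.14), the latter also without doublet removal (-1.11). Without a filter on low counts Mafa in Ppy+Sst+ against Ppy+ (4.83) and Nkx6-1 in Ppy+Sst+ against Sst+ cells (2.24) were gained. The causes were not tested.

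Leaving out an experiment leaves 1 sum a class and so gives values with no test. The lowest and highest were 0 and 4.16 for Mafa in Ppy+Gcg+ against Ppy+ and -4.55 and -1.39 against Gcg+ cells. For Pdx1 they were 3.52 and 3.58 in Ins2+ against Ppy+, 0.80 and 1.04 in Ins2+ against Sst+, and -0.83 and -0.73 in Ppy+Ins2+ against Ins2+ cells. For Nkx6-1 they were 4.51 and 6.76 in Ins2+ against Gcg+, 4.69 and 12.3 in Ins2+ against Sst+, -10.0 and -2.01 in Sst+ against Ppy+, -5.56 and -0.18 in Sst+ against Gcg+, 1.44 and 8.51 in Ppy+Sst+ against Sst+, and 1.749 and 1.750 in Ppy+Ins2+ against Ppy+ cells. The extreme values for Sst+ cells are those of experiment 1, in which they had 0 Nkx6-1 UMIs.

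The number of all genes called ranged most in Ppy+Gcg+ against Gcg+ (25 to 383), Ppy+Sst+ against Sst+ (7 to 92), Ppy+Ins2+ against Ins2+ (97 to 417), Ppy+Gcg+ against Ppy+ (90 to 340), Ppy+ against Gcg+ (387 to 1502), Sst+ against Ppy+ (445 to 1299) and Ins2+ against Ppy+ cells (1437 to 3168), and was 436 to 875 in Ppy+Sst+ and 443 to 818 in Ppy+Ins2+ against Ppy+ cells.

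In bulk, 35 of 36 values of the members were unchanged in direction and call, and Pdx1 turned to 0.0352 without δ-library 3, uncalled in either case; it ranged from -0.36 to 0.0352 over the libraries left out. Upper-quartile scaling shifted the median of all genes by -0.30 on the log2 scale (Nkx6-1 1.60, Pdx1 -0.46, Mafa 5.22). Bulk replicate numbers did not pair the libraries (correlations of deviations -0.0952, 0.0679 and -0.274), and with the number as a replicate block the log2 fold changes were 1.89 for Nkx6-1, -0.12 for Pdx1 and 5.33 for Mafa, with 5373 genes called in place of 6268. Depth limits Mafa and Pax4 outside the insulin classes, where a few UMIs or reads decide a value.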
